A study of Mus musculus with 34 samples.

Results

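The 9 genes described here act in presentation of antigens on MHC class I molecules: B2m, H2-K1, H2-D1, Tap1, Tap2, Tapbp, Psmb8, Psmb9 and Irf1. They were chosen by name for their role in this pathway, with earlier results of these data known. Each matched 1 row among the 23366 gene rows of the deposited RNA-seq table. All 9 had a mean of at least 10 normalized counts over the 4 libraries, the minimum set for testing, which 12993 genes reached. The study asked whether Royalactin, a protein of honeybee royal jelly, keeps mouse embryonic stem cells (mESCs) self-renewing when leukaemia inhibitory factor (LIF) is withdrawn. The libraries came from J1, an established mESC line, so any result holds for 1 line. Both groups were grown on gelatin in serum medium without LIF, at passage 40 by the sample labels. The 2 serum/-LIF libraries had no further addition, and the 2 serum/-LIF + Royalactin libraries came from cells given purified Royalactin at 0.5 mg/ml. The other samples of the series, all of them ATAC-seq and including those with LIF, were not analysed here.

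MHC class I molecules show peptides from inside the cell to cytotoxic T cells. Peptides are cut by the proteasome, carried into the endoplasmic reticulum by the TAP transporter and loaded onto a heavy chain paired with beta-2-microglobulin. Interferon-gamma raises the genes of this pathway, in part through IRF1, and in mESCs class I molecules are known to be scarce at the cell surface and to increase when the cells differentiate.

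Of the 9 genes 7 lie on mouse chromosome 17, in or beside the MHC, while B2m is on chromosome 2 and Irf1 on chromosome 11. Psmb9 and Tap1 are transcribed away from each other, with 225 bases between their RefSeq starts. The 250 bases before the RefSeq start are shown for the light chain, for the heavy chain with the most normalized counts and for the interferon-regulated transcription factor. Together they hold 5 motifs known from class I and interferon-regulated promoters. These are a pair of GAAA separated by any 2 bases, the core of the interferon-stimulated response element (ISRE), TTCNNNGAA, the gamma-activated sequence, the NF-kB consensus, TGACGC, known as site alpha, and CCAAT, bound by NF-Y. Matches on either strand are in capitals, and the set of motifs was settled while matches were being looked at. The sequences are from RefSeq (GRCm38.p6), and each was found once, letter for letter, on its mm9 chromosome, at chr2:121973173-121973422 on the plus strand for B2m, chr17:34137293-34137542 on the minus strand for H2-K1 and chr11:53583266-53583515 on the plus strand for Irf1. Each reads 5′ to 3′ towards the gene.
B2m: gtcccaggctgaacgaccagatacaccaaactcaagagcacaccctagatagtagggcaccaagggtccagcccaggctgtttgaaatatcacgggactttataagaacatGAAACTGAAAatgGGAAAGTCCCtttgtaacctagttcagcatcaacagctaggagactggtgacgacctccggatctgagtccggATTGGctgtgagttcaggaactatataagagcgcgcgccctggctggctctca
H2-K1: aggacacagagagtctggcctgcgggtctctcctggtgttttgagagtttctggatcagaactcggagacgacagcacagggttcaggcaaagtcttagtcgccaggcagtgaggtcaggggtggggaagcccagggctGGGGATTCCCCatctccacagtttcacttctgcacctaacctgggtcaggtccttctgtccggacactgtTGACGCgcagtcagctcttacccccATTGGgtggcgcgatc
Irf1: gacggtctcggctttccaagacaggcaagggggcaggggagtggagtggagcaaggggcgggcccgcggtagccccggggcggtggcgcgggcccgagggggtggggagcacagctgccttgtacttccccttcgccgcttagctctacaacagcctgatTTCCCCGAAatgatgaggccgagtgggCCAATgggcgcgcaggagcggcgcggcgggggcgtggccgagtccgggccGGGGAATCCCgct

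In the B2m window the capitals are the ISRE core, the NF-kB consensus and CCAAT read on the other strand. The H2-K1 window holds 2 overlapping matches of the NF-kB consensus, printed as 1 run of capitals, then TGACGC and CCAAT read on the other strand. The Irf1 window holds TTCNNNGAA, CCAAT and the NF-kB consensus. H2-D1, whose window is not printed, also held TGACGC and 2 overlapping NF-kB consensus matches, and CCAAT at 2 places. Psmb8 held TTCNNNGAA, Tapbp held CCAAT at 2 places, and the stretch between Psmb9 and Tap1 held CCAAT once. TGACGTCA, the cyclic AMP response element, was searched too and matched none of these windows. RefSeq entries were found for 8 of the 9 genes, all but Tap2, and the first listed start was used where a gene had several. The gene spans given below come from another annotation, GENCODE, and differ from the RefSeq starts. By those spans the H2-D1, Psmb8 and Tapbp windows lie inside the gene, and Psmb9 and Tap1 overlap. Of 32851 RefSeq windows of 250 bases, 2.98% held the ISRE core, 7.02% TTCNNNGAA, 7.25% the NF-kB consensus, 6.12% TGACGC, 1.55% TGACGTCA and 33.8% CCAAT. A match is only a match of letters, and binding was not measured. Only exact matches were marked, so a stretch that differs from a pattern by a letter is missed, also in windows without an ISRE match.

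The values are reads per gene divided by 1 size factor per library, called normalized counts here. The libraries held 14737796 to 17597818 reads on genes, and 7878527 to 15999458 once Rn45s, the ribosomal RNA precursor with 9.08 to 46.6% of reads, was set aside. Differences were tested with limma on log2(normalized count + 1) across all 12993 genes, two-sided, with Benjamini-Hochberg adjustment and a threshold of 0.05. This scale understates the change of weakly expressed genes. With this test 64 genes passed (0.493% of those tested), 43 higher (0.331%) and 21 lower (0.162%) with Royalactin. With any 1 library left out, 0 genes passed. The series describes its experiments as done at least in biological duplicate, and p-values rest on the spread between the 2 libraries of each group. Of 10 markers of undifferentiated mESCs, all were detected in every library and 5 rose with Royalactin (Sox2, Zfp42, Esrrb, Klf4 and Tfcp2l1), with log2 fold changes of the list from -0.45 (Tdgf1) to 3.88 (Klf4). Their summed level was 25362.4 to 31397.2 normalized counts in serum/-LIF and 35820.1 to 42564.3 with Royalactin.

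The 9 genes had lower rather than higher values with Royalactin in most cases, but 0 of 9 passed the test. Of the 9 log2 fold changes 8 were below 0, as were 50.6% of those of all tested genes. In 5 genes, B2m, H2-K1, H2-D1, Psmb8 and Psmb9, both Royalactin libraries lay below both serum/-LIF libraries, which was the case for 18.9% of tested genes. Psmb9 reached the minimum for testing only through serum/-LIF (means of 26.4 and 5.67 normalized counts), so its separation is no support for the count, which was 4 with a minimum mean of 50 normalized counts. In 0 of the 9 did both lie above, against 19.7% of tested genes, and 38.6% did not overlap in either direction. The median log2 fold change of the 9 genes was -0.74, and that of all tested genes was -0.01. Since the 9 genes were chosen with earlier results of these data known, these comparisons with all tested genes are description, not a test. Without adjustment, 2 of the 9 had p under 0.05 (B2m and H2-K1), against 9.34% of tested genes in either direction and 4.58% in the lower direction. In edgeR's quasi-likelihood test on recovered reads, added after the data had been seen, 0 of the 9 passed after adjustment, against 0.423% of tested genes, and 2 of the 9 had an unadjusted p under 0.05. In a bulk library, fewer cells of a type and less RNA per cell cannot be told apart.

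**Figure D1:**
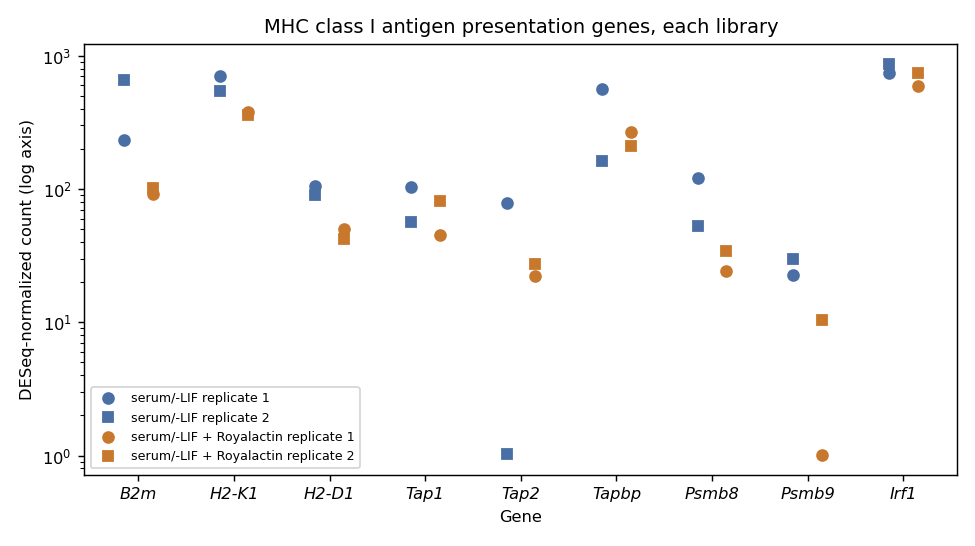
Normalized count (log axis) of each of the 9 genes in the 4 libraries, serum/-LIF in blue and serum/-LIF + Royalactin in orange, circles for replicate 1 and squares for replicate 2. Blue and orange points do not overlap for B2m, H2-K1, H2-D1, Psmb8 and Psmb9, and Tap2 has 1 serum/-LIF library at 1.03 normalized counts.

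The class I light and heavy chains come first. B2m encodes beta-2-microglobulin, the light chain shared by all classical class I molecules, and spans chr2:121973422-121978819 of mm9 with 4 exons of 0.860 kb in all. It had 235.4 and 654.2 normalized counts in serum/-LIF replicates 1 and 2, from 176 and 632 reads. With Royalactin it had 91.5 and 102.6, from 91 and 149 reads. Both Royalactin libraries lay below both serum/-LIF libraries, and the serum/-LIF libraries lay far apart. The means were 444.8 ± 296.1 in serum/-LIF and 97.1 ± 7.80 with Royalactin (SD, n = 2), a ratio of 4.58. The log2 fold change was -2.01 (standard error 0.51, 95% interval -3.11 to -0.91, limma, Benjamini-Hochberg adjusted p = 0.142). B2m thus missed the threshold in this fit. Without serum/-LIF replicate 2, its higher library, the log2 fold change was -1.27, and with each of the other libraries left out in turn it was -2.74 to -1.93.

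B2m is a short gene, and short genes differed between replicates. For the 559 tested genes with under 1 kb of exons, the median log2 difference of replicate 2 from replicate 1 was 0.52 in serum/-LIF and 0.49 with Royalactin. For the 5603 genes over 4 kb it was -0.20 and -0.17. Between conditions the median log2 fold change was -0.22 for the short genes and 0.06 for those over 4 kb. After a correction for GC content and length, chosen after the data had been seen, the log2 fold change of B2m was -1.70 and passed the threshold (limma, Benjamini-Hochberg adjusted p = 0.033), as did 0.716% of tested genes in the lower direction. Over the 16 alternatives run, the adjusted p of B2m was 0.00109 to 1.0 and its fold change stayed below 0. The part that length plays in the spread of B2m was not tested further.

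**Figure D2:**
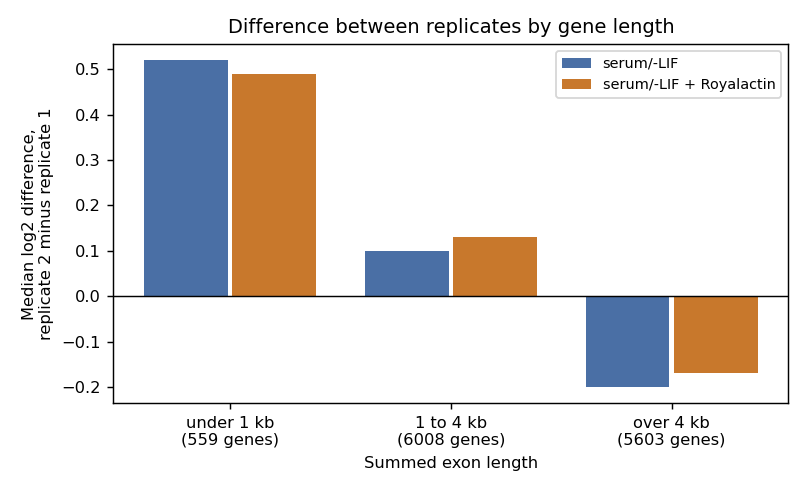
Median over tested genes of the log2 difference of replicate 2 from replicate 1 in each group (bars), by summed exon length. In both groups the bar is about 0.5 for the 559 genes under 1 kb, near 0.1 for the 6008 genes of 1 to 4 kb and below 0 for the 5603 genes over 4 kb.

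H2-K1 encodes the K heavy chain and lies at chr17:34132962-34137278 on the minus strand. Its values were 700.8 and 547.5 normalized counts in serum/-LIF and 380.2 and 358.6 with Royalactin. The groups did not overlap, and relative to their level the replicates of each group lay closer to each other than for B2m. The means were 624.1 ± 108.3 and 369.4 ± 15.3 (SD, n = 2), and the log2 fold change was -0.74 (95% interval -1.48 to -0.01, limma, Benjamini-Hochberg adjusted p = 0.524). H2-D1, the D heavy chain at chr17:35399675-35404444 on the plus strand, had 105.6 and 90.1 normalized counts in serum/-LIF and 50.3 and 42.0 with Royalactin. Here too the groups did not overlap, with means of 97.9 ± 11.03 and 46.1 ± 5.87 (SD, n = 2). The log2 fold change of H2-D1 was -1.07 (95% interval -2.43 to 0.29, limma, Benjamini-Hochberg adjusted p = 0.658). Class I heavy chains share long stretches of sequence, and 27.5% of the 75-base exon tiles of H2-K1 and 20.7% of those of H2-D1 also aligned elsewhere in the mm9 genome when 2 mismatches were allowed, against 0 for B2m, so the heavy chain counts are uncertain.

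Levels were compared between genes per kilobase of exon. Over the 4 libraries B2m had a mean of 315.0 normalized counts per kb, above 82.8% of tested genes with a known length, and H2-K1 had 190.5, above 73.6%. Irf1 followed H2-K1 at 186.1 and Tapbp had 91.6. H2-D1 had 27.8, Psmb8 21.2, Tap1 13.2, Tap2 8.57 and Psmb9 4.38 normalized counts per kb, the last above 5.61% of tested genes. In serum/-LIF the light chain had 273.7 and 760.6 normalized counts per kb, and H2-K1 had 268.7 and 209.9, so B2m was above H2-K1 in both libraries, narrowly in replicate 1. With Royalactin B2m had 106.4 and 119.3 per kb and H2-K1 had 145.8 and 137.5, so the order was turned in both. B2m is short and the H2-K1 counts are uncertain, so the order of the chains is uncertain too. H2-D1 stayed at 34.8 to 40.8 per kb in serum/-LIF and 16.2 to 19.4 with Royalactin, below both in every library. H2-K1 and Irf1, neighbours in the order of means, overlapped in their ranges over the 4 libraries, 137.5 to 268.7 and 149.0 to 220.0 per kb, and so did H2-D1 and Psmb8, at 16.2 to 40.8 and 8.82 to 44.0.

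The genes that carry and load peptides showed no such separation. Tap1, one chain of the TAP transporter at chr17:34324498-34334170 on the plus strand, had 104.3 and 56.9 normalized counts in serum/-LIF and 45.3 and 81.9 with Royalactin. The libraries of the groups were interleaved, and the log2 fold change was -0.33 (standard error 0.66, limma, Benjamini-Hochberg adjusted p = 0.917). It was 0.10 without serum/-LIF replicate 1 and 0.09 without serum/-LIF + Royalactin replicate 1. Tapbp, the gene of tapasin at chr17:34052844-34066235 on the plus strand, which holds class I molecules at the transporter, had 563.0 and 163.5 normalized counts in serum/-LIF. With Royalactin it had 269.6 and 212.0, between the 2 serum/-LIF values. Its log2 fold change was -0.34 (standard error 0.52, limma, Benjamini-Hochberg adjusted p = 0.883), and 0.55 without serum/-LIF replicate 1.

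Tap2, the other chain of the transporter at chr17:34340472-34353266 on the plus strand, was the least steady of the 9. It had 78.9 and 1.03 normalized counts in serum/-LIF, from 59 reads and 1 read, and 22.1 and 27.5 with Royalactin, from 22 and 40 reads. The Royalactin libraries lay between the serum/-LIF libraries. The log2 fold change was 1.01 (standard error 1.54, limma, Benjamini-Hochberg adjusted p = 0.885), although the mean was lower with Royalactin, 24.8 ± 3.82 against 40.0 ± 55.1 (SD, n = 2). Without serum/-LIF replicate 2 it was -1.64, so no direction can be given for Tap2. Of its exon bases 14.1% overlap Gm15821 on the opposite strand, and a 212-base overlap joins Tap1 and Psmb9. Whether counting used the strand is not given in the sources used here, so reads of such pairs cannot be told apart.

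Psmb8 and Psmb9 encode LMP7 and LMP2, catalytic subunits that replace constitutive ones in the immunoproteasome. Psmb8 (chr17:34334666-34338399, plus strand) had 120.4 and 52.8 normalized counts in serum/-LIF and 24.1 and 34.4 with Royalactin. The groups did not overlap, with means of 86.6 ± 47.8 and 29.3 ± 7.27 (SD, n = 2) and a ratio of 2.96. Its log2 fold change was -1.44 (95% interval -3.08 to 0.20, limma, Benjamini-Hochberg adjusted p = 0.611). Psmb9 (chr17:34318932-34324709, minus strand) had 22.7 and 30.0 normalized counts in serum/-LIF, from 17 and 29 reads. With Royalactin it had 1.01 and 10.3, from 1 and 15 reads. The groups did not overlap, but the counts were the smallest of the 9 genes, and the log2 fold change of -2.51 had a 95% interval of -5.79 to 0.77 (limma, Benjamini-Hochberg adjusted p = 0.666). It was -1.26 without serum/-LIF + Royalactin replicate 1.

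Each induced subunit was also set against the constitutive subunit it replaces. The normalized count of Psmb8 was 9.31 and 3.92% of that of Psmb5 in serum/-LIF, and 3.05 and 2.22% with Royalactin. That of Psmb9 was 1.04 and 1.26% of Psmb6 in serum/-LIF, and 0.063 and 0.352% with Royalactin. Both ratios were thus lower in each Royalactin library than in each serum/-LIF library, with log2 differences of -1.19 and -2.43. Psmb10, the remaining induced subunit, was at 10.3 and 5.50% of Psmb7 in serum/-LIF and at 8.08 and 16.4% with Royalactin, a log2 difference of 0.61 with the groups overlapping. The exact two-sided permutation p was 0.333, 0.333 and 0.667 for the 3 pairs, and 0.333 is the smallest that 2 against 2 libraries allow. These are ratios of counts, not of counts per kb, and 96.4% of the exon tiles of Psmb5 and 25.0% of those of Psmb7 matched elsewhere in the genome.

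**Figure D3:**
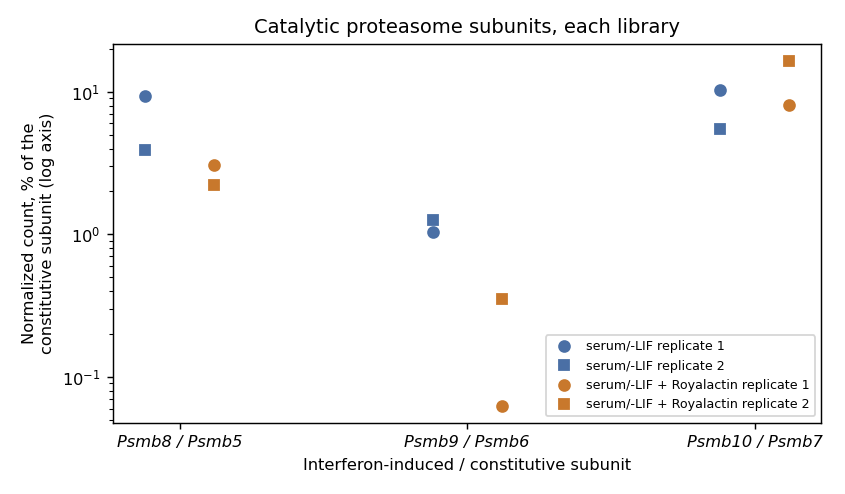
Normalized count of each interferon-induced catalytic subunit as a percentage of that of its constitutive counterpart (log axis), 1 point per library. For Psmb8 and Psmb9 both Royalactin points (orange) lie below both serum/-LIF points (blue), and for Psmb10 the groups overlap.

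Irf1, the transcription factor that interferon-gamma induces and that activates class I promoters, lies at chr11:53583516-53591876 on the plus strand. It had 744.9 and 874.6 normalized counts in serum/-LIF and 592.4 and 747.5 with Royalactin. The upper Royalactin library lay just above the lower serum/-LIF library, so the groups overlapped. The means were 809.8 ± 91.7 and 670.0 ± 109.7 (SD, n = 2), and the log2 fold change was -0.28 (95% interval -0.96 to 0.41, limma, Benjamini-Hochberg adjusted p = 0.841). This interval overlaps that of B2m, -3.11 to -0.91, and the part of Irf1 in the class I values was not tested.

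**Figure D4:**
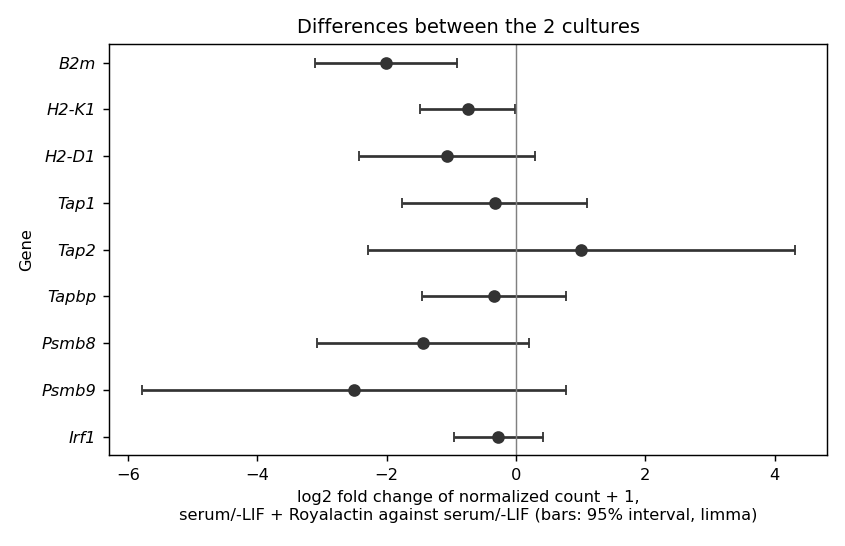
Log2 fold change of serum/-LIF + Royalactin against serum/-LIF for each of the 9 genes (points) with its 95% interval from limma (bars), on log2(normalized count + 1). The intervals of B2m and H2-K1 lie below 0 and the other 7 include 0, and after adjustment over all tested genes 0 of 9 passed.

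Other genes of the pathway were taken from lists drawn up by role. Of 28 other class I heavy chain genes 14 were tested, 11 were at 0 in every library and 0 passed the test. Their median log2 fold change was -0.49, with 3 whose libraries lay higher with Royalactin and 3 lower, against 19.7% and 18.9% of all tested genes. H2-Q2 and Cd1d1 reached the minimum for testing only through the group where they were higher, so their separation is no support for these counts. The lowest value was that of H2-Q2, at 50.8 and 16.6 normalized counts in serum/-LIF and 2.01 and 5.51 with Royalactin (log2 fold change -2.77, limma, Benjamini-Hochberg adjusted p = 0.617). The highest was that of Cd1d1, a lipid-presenting class I relative, which had 0 reads in either serum/-LIF library but 42 and 20 reads with Royalactin. The Royalactin mean of Cd1d1 was 7.87 times the mean of a floor of 3 reads per serum/-LIF library, which covers counting error only. The Royalactin libraries lay far apart, at 42.25 and 13.77 normalized counts, so this ratio is not a lower bound. Cd1d1 did not pass the test (limma, Benjamini-Hochberg adjusted p = 0.551), and 32.2% of its exon tiles matched elsewhere. H2-M5, named after its values were seen, had 18.7 and 13.5 normalized counts in serum/-LIF and 89.5 and 126.0 with Royalactin, the opposite order to H2-K1 and H2-D1 (log2 fold change 2.67, limma, Benjamini-Hochberg adjusted p = 0.217).

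The shared folding machinery lay near the median of all genes. Of 14 peptide loading and trimming partners, which include chaperones and the translocon, 0 passed and the median log2 fold change was -0.17. In 13 of the 14 the groups overlapped and in 1 they did not, against 38.6% of tested genes whose groups did not overlap. The extremes were Erap1, the peptidase that trims peptides to length, at -0.47 and Ganab, a glucosidase subunit, at 0.34. Of the 3 other interferon-induced proteasome genes, the activator subunits Psme1 and Psme2 had both Royalactin libraries below both serum/-LIF libraries. This was the case for 18.9% of tested genes. Psme1 had 837.2 and 820.8 normalized counts in serum/-LIF and 406.4 and 627.1 with Royalactin (log2 fold change -0.71, limma, Benjamini-Hochberg adjusted p = 0.546). Psme2 had 711.5 and 1420.1 against 640.7 and 638.1 (log2 fold change -0.65, adjusted p = 0.63 in limma, Benjamini-Hochberg). Psmb10 had 220.7 and 189.4 in serum/-LIF and 148.9 and 415.1 with Royalactin (log2 fold change 0.28). All 17 constitutive 20S core and activator genes had fold changes below 0, from -0.57 (Psma7) to -0.02 (Psma1), with a median of -0.33. None of the 17 passed the test, and in 3 of the 17 the groups did not overlap, all lower, against 18.9% of tested genes in that direction.

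The regulators upstream of the pathway did not share one direction. Of 18 class I transcription regulators 17 were tested and 0 passed, with 5 whose libraries lay higher and 1 lower with Royalactin (19.7% and 18.9% of all tested genes) and a median log2 fold change of 0.13. Irf9, the DNA-binding subunit of a complex that type I interferon activates, had 56.2 and 21.7 normalized counts in serum/-LIF and 108.6 and 140.4 with Royalactin, the opposite order to B2m (log2 fold change 1.79, limma, Benjamini-Hochberg adjusted p = 0.404). Nlrc5, the transactivator of class I promoters, was low and overlapped between groups, at 16.1 and 43.5 against 29.2 and 19.3 normalized counts. Irf2, a factor that shares IRF1 binding sites, had 1 read in all 4 libraries together. Irf7, at 0 and 41.4 against 0 and 2.06 normalized counts, had the lowest log2 fold change of the list, -1.90. Of 11 interferon receptors, kinases and inhibitors 0 passed, and the extremes were the kinase Tyk2 at 1.33 and Socs1, an inhibitor of JAK signalling, at -1.79.

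Other interferon-stimulated genes were mixed as well. Of 38 listed genes 25 were tested, 1 rose and 0 fell, 8 had libraries that lay higher and 4 lower with Royalactin (19.7% and 18.9% of all tested genes), and the median log2 fold change was 0.09. Oas1a and Cxcl10 reached the minimum for testing only through the group where they were higher, so their separation is no support for these counts. The gene that rose was Ifitm1, a membrane protein that restricts virus entry and is also expressed in early embryos. It had 252.8 and 344.7 normalized counts in serum/-LIF and 934.4 and 1295.5 with Royalactin. Ifitm1 thus rose 3.73-fold, from 298.7 ± 65.0 to 1114.9 ± 255.3 (SD, n = 2), or 1.89 on the log2 scale (standard error 0.35, limma, Benjamini-Hochberg adjusted p = 0.0276). It was above 0 in all 16 alternatives and below the threshold of 0.05 in 9, with adjusted p from 5.61e-11 to 1.0, and it did not pass with any 1 library left out. Of its exon tiles 52.8% matched elsewhere, so its count is uncertain. Cxcl10, a chemokine induced by interferon-gamma, had 50.8 and 50.7 normalized counts in serum/-LIF and 7.04 and 9.64 with Royalactin (log2 fold change -2.48, limma, Benjamini-Hochberg adjusted p = 0.473). Oas1a, a sensor of double-stranded RNA, had the highest value of the list, 3.02, from 14.7 and 0 against 15.1 and 63.3 normalized counts. Of 11 MHC class II genes 0 reached the minimum for testing, and their sum was 29.6 to 58.3 normalized counts per library, so class II transcripts were near the limit of detection in both groups.

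**Figure D5:**
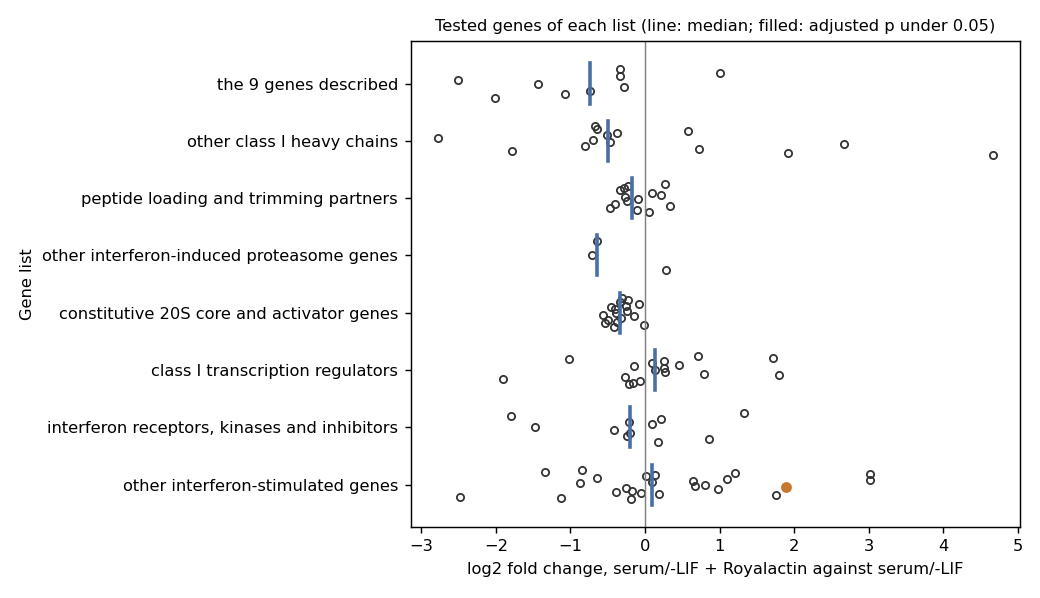
Log2 fold change of serum/-LIF + Royalactin against serum/-LIF for every tested gene of the 9 described and of the 7 pathway and interferon lists (circles), without the cell type markers, with the list's median (blue line). The 9 genes have the lowest median, -0.74, the 17 constitutive proteasome genes all lie below 0, and Ifitm1, the filled circle, is the only one drawn that passed the test.

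Class I genes are high in blood, stromal and endothelial cells, so markers of such cells were summed in each library. None of these markers that reached the minimum for testing passed the test. The 12 haematopoietic markers summed to 159.1 to 222.5 normalized counts in serum/-LIF and 178.3 to 202.2 with Royalactin, with Lyz2, Csf1r, Emr1, Tyrobp and Cd52 at 0 in every library and Ptprc at 1 read in all. In 2 of the 12 both Royalactin libraries lay lower and in 2 higher, against 18.9% and 19.7% of tested genes. Among them were Coro1a at 81.6 and 187.3 against 51.3 and 71.6 and Laptm5 at 21.4 and 5.17 against 77.5 and 45.4. Such counts of the marker lists include genes below the minimum for testing, while the shares do not.

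The 12 fibroblast markers summed to 1048.5 to 2182.5 and 3300.6 to 6180.9, but nearly all of this was Fn1, and Postn, Pdgfrb and S100a4 were at 0 in every library. Without Fn1 the sums were 175.2 and 94.2 in serum/-LIF and 108.6 and 73.7 with Royalactin, and overlapped. In 3 of the 12 both Royalactin libraries lay lower and in 1, Fn1, higher, against 18.9% and 19.7% of tested genes. Dcn, the gene of decorin, had 37.5 and 31.1 normalized counts in serum/-LIF (28 and 30 reads) and 0 in both Royalactin libraries. Dcn reached the minimum for testing only through serum/-LIF, so its separation is no support for the count of lower markers. Col1a1 had 12.0 and 11.4 against 0 and 4.13, and Col3a1 had 21.4 and 6.21 against 0 and 3.44, and both were below the minimum for testing. Pdgfra overlapped between groups, at 52.2 and 0 against 42.3 and 32.4.

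The 8 endothelial markers summed to 277.4 to 308.9 in serum/-LIF and 459.7 to 532.1 with Royalactin. In 4 of the 8, Kdr among them at 1.34 and 0 against 31.2 and 21.3, both Royalactin libraries lay higher, against 19.7% of tested genes. In 1, Tie1 at 28.1 and 7.25 against 0 and 1.38, both lay lower, against 18.9%. Kdr and Cldn5 reached the minimum for testing only through the group where they were higher, so their separation is no support for these counts. Egfl7, with a log2 fold change of 0.24, overlapped. The 9 primitive endoderm markers summed to 1980.1 to 3696.4 and 2096.0 to 2492.5. Both Royalactin libraries lay lower in 2 of the 9, Col4a1 (log2 fold change -0.78) among them, and higher in 2, beside the same shares. Some markers of other cell types thus moved in the order of the class I chains and others in the opposite order, and their part in the class I values was not tested. The mESC marker sum lay higher with Royalactin, the opposite order to the class I chains, and its part in the class I values was not tested.

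The genes outside these lists whose pattern over the 4 libraries was most like that of B2m were found by the root mean square distance of centred log2 values. They were Acyp2 at 0.17, Ffar2 at 0.192, Cldn3 at 0.196, and Gm12794 and Gm10406 at 0.22 each, against a median of 1.20 over all tested genes. Acyp2, an acylphosphatase, had 53.5 and 151.1 normalized counts in serum/-LIF and 27.2 and 27.5 with Royalactin. Among the other 8 class I pathway genes the nearest was H2-D1, at 0.776, with 7.64% of tested genes nearer to B2m than it was, and the farthest was Tap2, at 2.83. Heavy and light chain thus shared the order of the groups but not the difference between the serum/-LIF replicates, in which B2m was higher in replicate 2 and H2-K1 and H2-D1 were lower.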

How the data were processed

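RNA-seq of 2 serum/-LIF and 2 serum/-LIF + Royalactin libraries was used, grouped by the sample labels. Ribosomal RNA was depleted before single-end sequencing. Alignment by the authors was with Tophat on mm9, with 2 mismatches allowed, and HTSeq-count gave the reads of each gene. The deposited values are DESeq-normalized counts, a signal proportional to reads. The annotation and strand setting of the counting are not given in the sources used here. The paper gives another passage number for these cells than the sample labels, which were followed. All 4 value columns were mapped (0 were not), and 27 symbols read as dates. Divided by the step of their library, 100% of values came out whole to within 0.01 of a read. The step of serum/-LIF + Royalactin replicate 1, 1.0058, is too near 1 to prove that these are whole reads, so edgeR 4.0.16 on recovered reads was only an added alternative.

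Genes whose mean over the libraries reached 10 normalized counts were tested on log2(value + 1) with limma 3.58.1 in R 4.3.3 (trended variance, Benjamini-Hochberg). Named were the 9 genes, the proteasome subunits and regulators given by name, each list's largest rise and fall, every listed gene past the threshold, and the 5 genes nearest to B2m. A gene that this rule names is not reported here. The 9 genes and the lists were chosen with earlier results of these data known. Exon lengths are from GENCODE on the same build, for 93.7% of tested genes, and exon tiles were mapped with minimap2 2.31-r1302. The steps were tested on simulated data for this comparison (5 simulations of 12711 to 12762 genes, 200 changed), in which limma called 47.8% of changed genes, 69% where the change was 4-fold or more, and 3.85% of its calls were false. The simulated counts held no difference between replicates by gene length, unlike the libraries, so these rates may not hold for them. Alternatives were other pseudocounts, filters and scalings, no variance trend, the replicate block, each library left out, and, chosen after the data had been seen, edgeR and a correction for GC content and length with and without the block.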

Additional observations from a re-analysis of the deposited data

How the results depend on the processing

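Of 142 values of the 9 genes under 16 alternatives, 134 kept their direction and their side of the threshold, 3 newly passed it and 5 changed sign. The count of all genes past the threshold, 64, was 32 with a pseudocount of 0.1, 34 without a filter, 99 with a mean of at least 50, 236 after the correction for GC content and length, 55 in edgeR (54 of them shared) and 0 without the variance trend, where 1135 had an unadjusted p under 0.05. The replicate numbers do not mark shared cultures in the labels, and deviations of same-numbered libraries had r = 0.0851 across 12993 genes, which are not independent. With the replicate block 391 genes passed (3.01%; 1.3% in the lower direction), and 744 with the block and the GC and length correction. The number of the 9 genes past the threshold, 0, was 1 with the replicate block, 1 after the GC and length correction and 1 with both, B2m each time (limma, Benjamini-Hochberg adjusted p = 0.00142, 0.033 and 0.00109). With any 1 library left out 0 genes passed, so those fits say nothing about the stability of calls, and 0 of the 9 passed. The median of the 9 was then -1.23 to -0.57, the lowest without serum/-LIF replicate 2. With a library left out, the number whose remaining Royalactin libraries all lay below the remaining serum/-LIF libraries was 5 to 8. The number above was 0 to 2, with 8 lower without serum/-LIF replicate 2 and 2 higher, Tap2 and Tapbp, without serum/-LIF replicate 1. Groups separate more easily with a library left out, and the share of all tested genes was not computed for these fits. These counts are therefore no result about the 9 genes. In the same fits Tap1 went from -0.77 to 0.10 (above 0 without serum/-LIF replicate 1 and, at 0.09, without serum/-LIF + Royalactin replicate 1), Tapbp from -1.23 to 0.55 (above 0 without serum/-LIF replicate 1) and Tap2 from -1.64 (without serum/-LIF replicate 2) to 3.66, and Tap2 was -0.65 in edgeR. The cause was not tested in any of these cases. The log2 difference of Psmb8 from Psmb5 was -1.80 to -0.57 with a library left out, that of Psmb9 from Psmb6 -3.24 to -1.62 and that of Psmb10 from Psmb7 0.10 to 1.12. With 1 library left in a group, its spread is assumed to be that of the other group. Psmb9 and Tap2 had 1 read each in 1 library and the largest standard errors of the 9 genes.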
